A study of Mus musculus with 16 samples.

Results

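Nprl3, Mpg, Rhbdf1, Snrnp25 and Il9r lie side by side on mouse chromosome 11, next to the α-globin cluster, and Nprl3 is the gene targeted in these animals. They were taken by position and by symbol, as 5 of the 55416 genes in the count table, and their counts were read in all 16 libraries. The libraries hold RNA of S1 erythroblasts and of the more mature S3 erythroblasts, sorted by surface Ter119 and CD71 from mouse foetal livers at E13.5. For each embryo there is 1 library of each stage. The wild-type (WT) group held embryos 0 and 8, which were male, and 1 and 5, which were female. The heterozygous (Het) group held the male embryos 3 and 4, and the homozygous knockout (KO, Nprl3-/-) group held the female embryo 2 and the male embryo 9. The null allele was a constitutive deletion of the whole Nprl3 promoter region, present in every cell of the embryo and not only in erythroid cells, with the α-globin enhancers left in place. Its exact bounds are not given in the sources used here. The line had been bred onto a C57BL/6J background. The tissue fields of the labels name an embryonic stem cell line, while the titles and the protocol give sorted foetal liver cells.

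The 5 genes encode unrelated proteins. Nprl3 is a subunit of GATOR1, the complex that holds back the growth kinase mTORC1 when amino acids are scarce. Mpg is a DNA glycosylase that starts base excision repair of alkylated bases, Snrnp25 is a protein of the minor spliceosome, Rhbdf1 encodes iRhom1, a partner of the surface protease ADAM17, and Il9r encodes the α chain of the receptor for interleukin 9. Most of the α-globin enhancers of the mouse lie within introns of Nprl3, and transcripts that start at these enhancers are known from the locus. A count per gene sums reads over all exons of that gene, so it does not tell at which start a transcript began.

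In the mm39 build Nprl3 (ENSMUSG00000020289.16) runs from 32175628 to 32217707 on the minus strand, with its start facing the globin genes. Mpg (ENSMUSG00000020287.16) lies inside these bounds, from 32176505 to 32182700 on the plus strand, so that the whole of Mpg overlaps Nprl3. Their annotated exons share 1340 bases, which are 17.7% of the 7572 exon bases of Nprl3 and 35.7% of the 3752 exon bases of Mpg. Strand was not used in the counting, and reads that overlapped both genes were left out, so that the counts of this pair cannot be told apart by strand. Beyond Mpg follow Rhbdf1 (ENSMUSG00000020282.19, 32159585 to 32172300, minus strand), Snrnp25 (ENSMUSG00000040767.11, 32155415 to 32158984, plus strand) and Il9r (ENSMUSG00000020279.11, 32137541 to 32150279, minus strand). Relative to the start of Nprl3 their starts lie at −41.2 kb (Mpg), −45.4 kb (Rhbdf1), −62.3 kb (Snrnp25) and −67.4 kb (Il9r), all on the side away from the globin genes.

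Promoters are shown because the deletion removed that of Nprl3 and left the other 4, although it cannot be told from these sources whether the deletion covers the whole window shown. Each line holds the 250 bases before the RefSeq start of the gene, 5′ to 3′ on the strand of the gene, in the GRCm38.p6 build, at chr11:32267708-32267957 for Nprl3, chr11:32226255-32226504 for Mpg, chr11:32205165-32205414 for Snrnp25 and chr11:32200280-32200529 for Il9r. RefSeq windows were matched for 4 of the 5 genes, and Rhbdf1 is named only. Capitals mark matches, on either strand, to AGATAA or TGATAA (bound by GATA factors), CCNCNCCC (KLF factors), CCAAT (the CCAAT box), GGGCGG (the GC box) and TATAAA (the TATA box). CCNCNCCC and GGGCGG can overlap.
Nprl3: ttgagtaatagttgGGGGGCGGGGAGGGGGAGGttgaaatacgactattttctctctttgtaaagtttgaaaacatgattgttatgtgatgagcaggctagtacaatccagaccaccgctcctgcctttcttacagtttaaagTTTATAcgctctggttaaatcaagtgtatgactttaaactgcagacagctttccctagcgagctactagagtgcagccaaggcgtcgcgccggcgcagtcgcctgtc
Mpg: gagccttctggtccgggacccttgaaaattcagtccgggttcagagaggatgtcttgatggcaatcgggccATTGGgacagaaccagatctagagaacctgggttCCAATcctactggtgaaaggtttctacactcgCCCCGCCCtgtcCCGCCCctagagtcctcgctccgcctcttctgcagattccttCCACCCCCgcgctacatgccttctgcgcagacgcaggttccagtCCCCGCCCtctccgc
Snrnp25: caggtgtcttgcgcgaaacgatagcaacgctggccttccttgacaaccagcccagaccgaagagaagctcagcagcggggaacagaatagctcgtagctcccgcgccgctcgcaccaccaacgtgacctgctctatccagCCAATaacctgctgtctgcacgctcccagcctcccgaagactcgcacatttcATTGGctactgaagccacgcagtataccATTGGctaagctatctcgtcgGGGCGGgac
Il9r: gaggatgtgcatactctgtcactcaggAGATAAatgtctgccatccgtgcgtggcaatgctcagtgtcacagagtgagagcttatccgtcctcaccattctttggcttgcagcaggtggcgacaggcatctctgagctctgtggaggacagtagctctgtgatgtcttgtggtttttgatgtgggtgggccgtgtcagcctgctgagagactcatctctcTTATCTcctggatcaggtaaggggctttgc

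The window of Nprl3 had a GC content of 47.2%, below the median of 52.4% over all 32851 windows, and held 4 overlapping or adjoining matches to CCNCNCCC, 1 to GGGCGG and 1 to TATAAA. The window of Mpg had a GC content of 59.6%, with 3 matches to CCNCNCCC, 3 to GGGCGG and 2 to CCAAT. That of Snrnp25 (58.4%) held 3 matches to CCAAT and 1 to GGGCGG, and that of Il9r (52.8%) held 2 to AGATAA. Over all windows CCNCNCCC was present in 45.9%, CCAAT in 33.9%, GGGCGG in 32.7%, TATAAA in 12.4%, AGATAA in 9.99% and TGATAA in 7.94%. A match is a run of letters and not a measured binding site.

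Library totals lay between 23331156 and 36035368 counts at S1 and between 20666044 and 37609502 counts at S3. Levels are given as CPM after TMM scaling, and differences as log2 fold changes of edgeR's quasi-likelihood fit. Between the stages all 9 erythroid markers were higher and all 4 early progenitor markers were lower at S3 in WT. Of tested markers of other cells, 8 of 10 for macrophages and 3 of 8 for hepatoblasts were called higher and 0 lower. For neutrophils 7 of 7 and for lymphoid cells 4 of 4 were lower. Megakaryocyte markers had 1 higher and 1 lower of 5, and mast cell and basophil markers 1 higher and 3 lower of 5. The S1 libraries of WT embryos 0 and 8 stood apart, with globin genes at 1.07% and 1.00% of their counts against 0.0738% to 0.306% in the other S1 libraries. These are also the male WT embryos, so that sex and this difference cannot be told apart among WT. Globin genes held 10.0% to 11.9% of the counts at S3, and the TMM factors were 1.33 to 1.51 at S1 and 0.66 to 0.770 at S3. Scaling by library totals alone moved the median log2 fold change of all genes between stages in WT from −0.08 to −1.14, so that stage differences depend on the scaling and are also given against that median. Separate cultures or litters are not marked in the labels beyond the embryo number, and each embryo was 1 replicate. In bulk libraries fewer cells of a type and less RNA per cell cannot be told apart.

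Nprl3 separated the genotypes at S1. The WT S1 libraries held 881, 897, 945 and 1588 counts in embryos 0, 1, 5 and 8, at levels of 26.4, 21, 23.0 and 33.8 CPM. The Het S1 libraries held 605 and 452 counts (12.4 and 12.6 CPM), and the KO S1 libraries 13 and 32 counts (0.309 and 0.656 CPM, embryos 2 and 9). No library of one genotype overlapped another at this stage. Of all genes tested at S1, 3.27% had KO below all WT libraries, 8.22% had Het below all WT and 18.2% had KO below Het. The mean level was 26.1 ± 5.61 CPM (SD, n = 4) in WT, and the Het and KO means were 47.9% and 1.85% of it. Between KO and WT the log2 fold change was −5.72 (standard error 0.43, 95% interval −6.72 to −4.71, adjusted p = 0.0212, edgeR with Benjamini-Hochberg adjustment). Nprl3 was the 1 of 4 members tested that passed, where 0.00712% of all genes tested did.

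Without embryos 0 and 8 this log2 fold change was −5.50 (edgeR adjusted p = 0.0251). The call was lost when WT embryo 0 (adjusted p = 0.152) or 5 (0.0876) or KO embryo 2 (0.149) or 9 (0.136) was left out in the same edgeR fit, while the log2 fold change stayed within −6.39 to −5.30. It was also lost with library totals, at −5.72 (edgeR adjusted p = 0.0668). Against Het, the KO libraries were lower by −4.65 on the log2 scale (standard error 0.39, edgeR adjusted p = 0.0135), again 1 of 4 members, beside 0.00719% of all genes. This call was lost with library totals (edgeR adjusted p = 0.0536) and in 6 of 8 fits with an embryo omitted, those without WT embryo 0 or 5 and without any one of the Het or KO embryos.

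The Het libraries lay near the midpoint between WT and KO at S1. The difference of WT and Het means was 13.6 CPM and that of Het and KO 12 CPM. The log2 fold change of Het against WT was −1.07 (standard error 0.24, unadjusted p = 0.0021) but missed the threshold over all genes (edgeR adjusted p = 0.905), as did all 4 members. In this comparison 0% of all genes passed in edgeR, where 589 had an unadjusted p under 0.05, and DESeq2 called 30 genes with Nprl3 among them (log2 fold change −1.08, adjusted p = 0.0208). Sex as a covariate sets the male Het embryos against the male WT embryos, and edgeR then gave −1.27 (adjusted p = 0.0200). These WT embryos are 0 and 8, whose S1 libraries stood apart, and the fit called 397 genes. Without embryos 0 and 8 the log2 fold change was −0.86 and did not pass (edgeR adjusted p = 0.827).

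At S3 the genotypes lay close together. The WT S3 libraries held Nprl3 at 166.5, 142.8, 145.6 and 213.6 CPM (embryos 0, 1, 5 and 8), the Het libraries at 153.2 and 125.9 CPM, and the KO libraries at 109.7 and 116.8 CPM. The KO libraries were below all others, while Het and WT overlapped. Of all genes tested 9.36% had KO below all WT libraries at this stage and 22.5% had KO below both Het libraries. Mean levels with their SD were 167.1 ± 32.7 CPM over the 4 WT libraries, 139.5 ± 19.3 CPM over the 2 Het libraries and 113.2 ± 4.98 CPM over the 2 KO libraries, so that Het held 83.5% and KO 67.7% of the WT level. The gene-level count at S3 therefore does not check the KO label by itself, whereas at S1 the same count in KO was 1.85% of that in WT. Which exons the KO reads came from was not measured here.

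The log2 fold change of KO against WT at S3 was −0.55 (standard error 0.19, 95% interval −0.98 to −0.12), which did not pass (edgeR adjusted p = 0.381). When sex entered the fit as a covariate it passed, at −0.53 (edgeR adjusted p = 0.0367). Het against WT gave −0.27 (standard error 0.19, edgeR adjusted p = 0.901) and KO against Het −0.28 (standard error 0.20, edgeR adjusted p = 0.762). With sex in the fit the first passed, at −0.46 (edgeR adjusted p = 0.0381), and the second did not, at −0.13 (edgeR adjusted p = 0.605). Of the 4 members tested, 0 were called in KO against WT, 0 in Het against WT and 0 in KO against Het, beside 0.559%, 0% and 0.0514% of all genes. At an unadjusted p under 0.05 these counts were 2, 0 and 1 members, and DESeq2 called 0 members in each. With sex in the fit 1, 2 and 2 members were called, in fits that called 547, 2124 and 1597 genes. Het against WT had 373 genes with an unadjusted p under 0.05 and 1 gene called by DESeq2. In absolute terms the gap between WT and KO was 25.6 CPM at S1 and 53.9 CPM at S3, and that between WT and Het was 13.6 and 27.6 CPM. The level of Nprl3 in KO at S3 was above that of every WT library at S1.

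**Figure D1:**
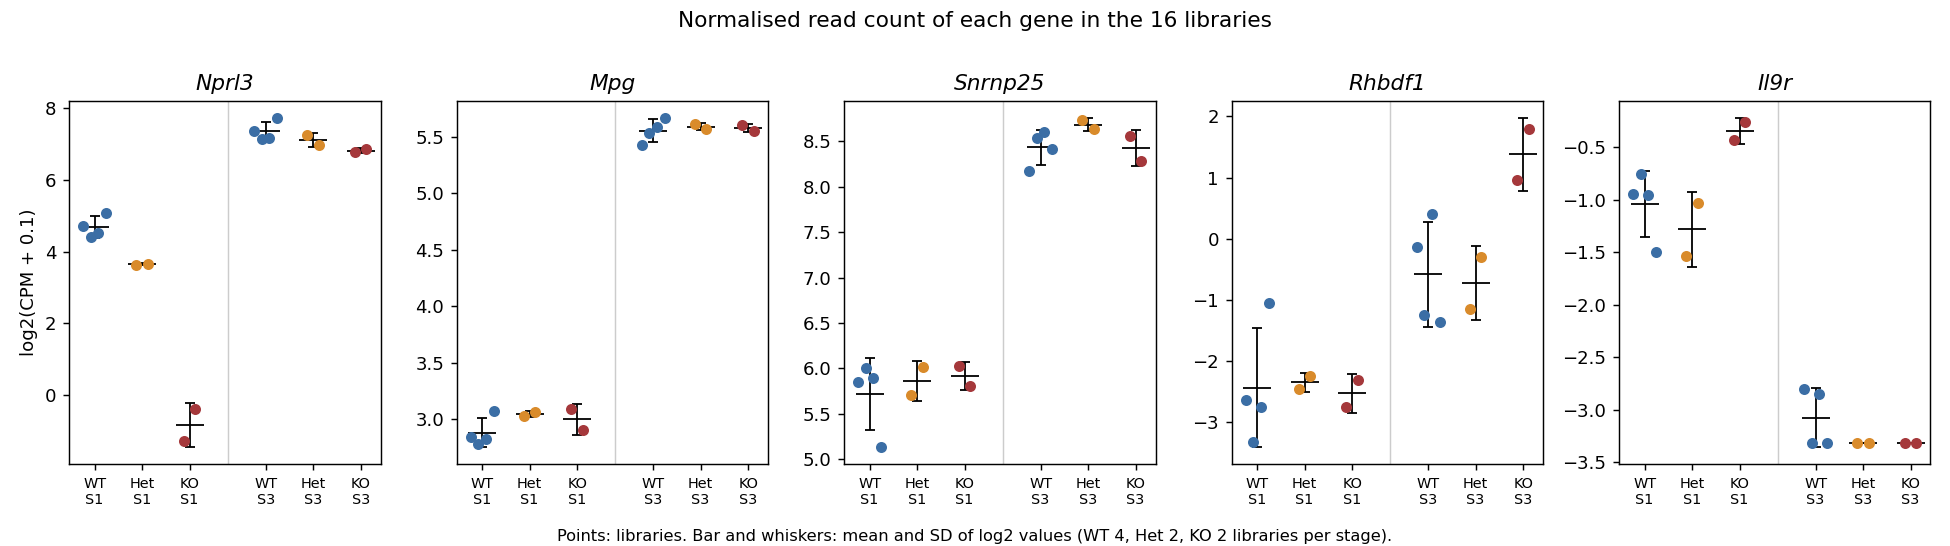
Level of each of the 5 genes (vertical axis, log2 of TMM CPM + 0.1, with a range of its own in each panel) in every library by genotype and stage, with points for embryos and bars for the mean and SD of the log2 values. Nprl3 was at 0.309 and 0.656 CPM in KO at S1 and at 109.7 and 116.8 CPM in KO at S3, while the panels of Mpg and Snrnp25 split by stage.

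Nprl3 rose between S1 and S3 in every genotype, and by most in KO. Within the same embryo the S3 level was 6.31, 6.80, 6.32 and 6.32 times the S1 level in WT embryos 0, 1, 5 and 8, 12.4 and 9.99 times in Het embryos 3 and 4, and 354.9 and 178 times in KO embryos 2 and 9. The folds of the 3 genotypes did not overlap and were in the order WT, Het, KO. The fitted log2 fold change was 2.69 in WT (standard error 0.19, 6.47-fold, edgeR adjusted p = 1.49e-06), 3.48 in Het (standard error 0.29, 11.2-fold, adjusted p = 2.47e-07) and 7.84 in KO (standard error 0.37, 229.6-fold, adjusted p = 6.19e-09). The last value rests on 45 counts in all at S1. All 3 calls held with library totals, where the folds were 3.15 in WT, 5.65 in Het and 120.5 in KO.

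The difference between the stage effects in KO and WT was tested directly, as an interaction of genotype and stage. It was 5.17 on the log2 scale (standard error 0.41, 95% interval 4.28 to 6.06, edgeR adjusted p = 3.05e-04), and 0.00742% of all genes passed, which was Nprl3 alone. With the embryo as a replicate block it was 5.19 (edgeR adjusted p = 6.19e-05). The same test for Het gave 0.78 (standard error 0.28, unadjusted p = 0.0168, adjusted p = 1), in a comparison where 0% of all genes passed in edgeR, 374 had an unadjusted p under 0.05 and DESeq2 called 0. Both interactions use the same WT libraries.

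Mpg and Snrnp25 rose at S3 by almost the same amount as Nprl3 in WT. Mpg held 7.07, 6.79, 6.97 and 8.30 CPM at S1 in WT embryos 0, 1, 5 and 8 and 43.1, 46.2, 48.0 and 50.8 CPM at S3. Snrnp25 held 57.4, 64.2, 59.5 and 34.9 CPM at S1 in these embryos and 288.9, 370.2, 390.2 and 341.4 CPM at S3. The stages did not overlap for either gene, where 28.6% of all genes tested had every WT S3 library above every S1 library and 32% had every one below. The single low value was Snrnp25 in the S1 library of embryo 8, one of those that stood apart. The log2 fold change between stages was 2.7 for Mpg (standard error 0.14, edgeR adjusted p = 3.34e-07) and 2.68 for Snrnp25 (standard error 0.22, adjusted p = 3.59e-06), against 2.69 for Nprl3. All 4 members tested, with Rhbdf1, were called higher in WT, 3 of 4 in Het and 4 of 4 in KO, but this comparison called 65.6% of all genes in WT, 61.3% in Het and 56.9% in KO in either direction. By size, 7.13% to 8.50% of all genes tested had a higher log2 fold change in WT than these members.

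In Het the stage difference was 2.56 for Mpg and 2.82 for Snrnp25 on the log2 scale, and in KO it was 2.59 and 2.52. The interaction of KO and stage was −0.10 on the log2 scale for Mpg (standard error 0.22, edgeR adjusted p = 1) and −0.17 for Snrnp25 (standard error 0.32, edgeR adjusted p = 1). With library totals the log2 value for Mpg was 0.0095, so that its sign depends on the scaling. Set against the median of all genes, the WT values were 2.78 for Nprl3, 2.78 for Mpg and 2.77 for Snrnp25 with TMM and 2.8, 2.81 and 2.81 with library totals.

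The ratio of 2 genes within a library does not depend on the scaling between libraries. In WT the ratio of Nprl3 to Mpg counts was 3.55 ± 0.44 at S1 and 3.55 ± 0.58 at S3 (SD, n = 4). Its log2 change between stages was −0.0071 (exact permutation test over samples, two-sided p = 0.971, 0.971 after Benjamini-Hochberg adjustment over 3 ratios, smallest possible p = 0.0286). This test did not use the pairing of stages within embryos. In Het the ratio was 1.53 at S1 and 2.90 at S3, and in KO it was 0.0628 and 2.37. The ratio differed between stages by less than the spread of embryos in WT, and was higher at S3 in each Het and KO embryo, where 2 against 2 libraries cannot go below an exact p of 0.333. The log2 ratios of Nprl3 to Snrnp25 and of Mpg to Snrnp25 changed by −0.03 and −0.02 in WT (exact permutation p = 0.914 and 0.971). Reads in the shared exons of Nprl3 and Mpg were not counted for either.

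**Figure D2:**
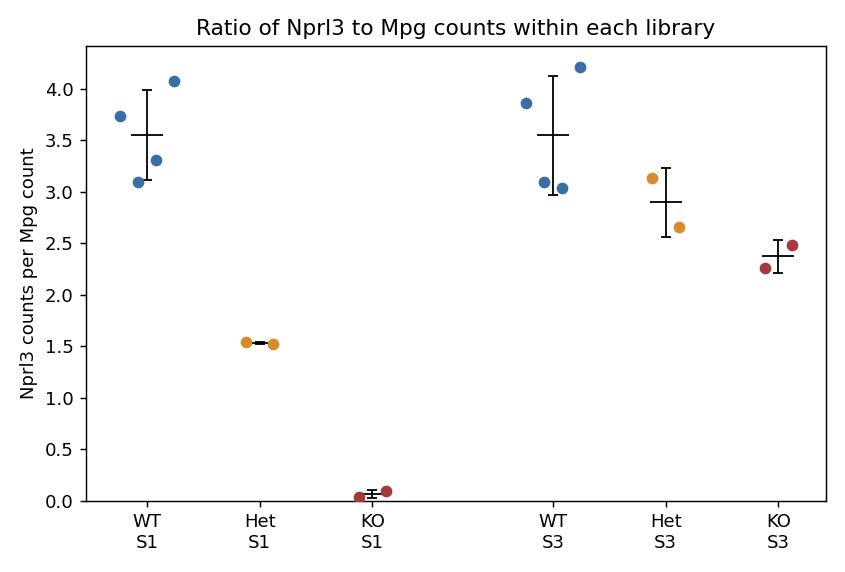
Ratio of Nprl3 to Mpg counts (vertical axis, starting at 0) in each library by genotype and stage, with points for embryos and bars for the mean and SD. WT libraries sit around 3.55 at both stages, Het libraries move from 1.53 to 2.90 and KO libraries from 0.0628 to 2.37.

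Mpg and Snrnp25 did not pass between genotypes at either stage in edgeR without a covariate, and with sex as a covariate Snrnp25 passed in comparisons with Het at S3. Mpg was at 8.05 and 8.29 CPM in Het and 8.44 and 7.38 CPM in KO at S1, and at 48.9 and 47.3 CPM in Het and 48.5 and 47.0 CPM in KO at S3, all of which overlapped or adjoined the WT range. For KO against WT its log2 fold change was 0.13 at S1 (95% interval −0.36 to 0.62) and 0.03 at S3 (−0.28 to 0.35). A change of Mpg in KO at S3 of more than 0.35 on the log2 scale lay outside this interval.

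Snrnp25 was at 52.0 and 64.5 CPM in Het and 64.8 and 55.8 CPM in KO at S1. Its KO to WT log2 fold change was 0.16 at S1 (95% interval −0.46 to 0.78), and −0.06 without WT embryos 0 and 8, and at S3 it was 0.0015 (−0.37 to 0.37) with a sign that turned in other settings. The Het S3 libraries held 426.7 and 396.3 CPM, above all 4 WT libraries (0.23 on the log2 scale, standard error 0.14, edgeR adjusted p = 0.901), an order seen in 6.97% of all genes tested. With sex in the fit Snrnp25 was higher in Het than in WT at S3, by 0.37 on the log2 scale (standard error 0.11, edgeR adjusted p = 0.0416), and lower in KO than in Het, at −0.38 (standard error 0.11, edgeR adjusted p = 0.0465). These fits called 2124 and 1597 genes in all, and all Het embryos are male.

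Rhbdf1 was the least abundant member at S1 and rose at S3 in WT and in KO. At S1 the WT libraries held 2, 0, 2 and 18 raw counts in embryos 0, 1, 5 and 8, the Het libraries 4 and 4, and the KO libraries 2 and 5. At S3 the WT libraries held 19, 7, 32 and 4 counts (0.815, 0.321, 1.22 and 0.289 CPM), the Het libraries 6 and 13 (0.349 and 0.712 CPM), and the KO libraries 29 and 60 (1.84 and 3.39 CPM, embryos 2 and 9). Both KO libraries lay above all WT and Het libraries at S3, while at S1 the genotypes overlapped and embryo 8 alone held more counts than at S3. The S3 means were 0.662 ± 0.444 CPM in WT (SD, n = 4) and 2.61 ± 1.09 CPM in KO (SD, n = 2).

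For KO against WT at S3 the log2 fold change of Rhbdf1 was 1.94 (standard error 0.56, 95% interval 0.66 to 3.22, unadjusted p = 0.0079), which did not pass over all genes (edgeR adjusted p = 0.287). KO libraries lay above all WT libraries in 9.18% and above both Het libraries in 20.1% of all genes tested, and 0.729% of genes had a higher log2 fold change. Without the filter on low counts the value was 1.92 and passed (edgeR adjusted p = 0.0191). Against Het it was 2.30 (standard error 0.71, edgeR adjusted p = 0.361), with 2.28 and an adjusted p of 0.00702 without the filter, and 2.34 and an adjusted p of 0.0472 with sex in the fit. KO embryo 9, the highest for Rhbdf1, also had the highest summed level of the 6 megakaryocyte markers at S3, 106.3 CPM against 39.8 to 86.8 CPM in the other S3 libraries, and of these markers Gp1bb was at 0 in every S3 library. The same library was also the highest at S3 for the 7 neutrophil markers, with 9.88 CPM against 0.917 to 4.67, and for the 4 early progenitor markers, with 8.86 CPM against 1.76 to 4.59. The 10 macrophage markers summed to 15.3 and 28.5 CPM in the KO S3 libraries and 29.3 to 66.2 CPM in WT. The part of these cells in the Rhbdf1 values was not tested.

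The stage difference of Rhbdf1 in WT was 2.41 on the log2 scale (standard error 0.86, edgeR adjusted p = 0.0302). However, the stages overlapped because of embryo 8 (exact permutation test over samples, without the embryo pairing, two-sided p = 0.0857). The difference was 4.39 without embryo 8 (edgeR adjusted p = 0.00159), 4.82 without embryos 0 and 8, and 2.12 without embryo 0, where it did not pass (adjusted p = 0.122). In Het it was 2.43 (edgeR adjusted p = 0.0806) and in KO 5.03 (standard error 1.12, edgeR adjusted p = 0.0015). The interaction of KO and stage was 2.66 (standard error 1.44, edgeR adjusted p = 1) and 0.21 without WT embryos 0 and 8.

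Il9r was read at S1 and almost not at S3. The WT S1 libraries held 14, 21, 17 and 12 counts in embryos 0, 1, 5 and 8 (0.420, 0.492, 0.414 and 0.255 CPM), the Het libraries 12 and 14 (0.245 and 0.391 CPM), and the KO libraries 27 and 36 (0.642 and 0.738 CPM). At S3 the WT libraries held 1, 0, 1 and 0 counts and every Het and KO library 0. No S3 library reached any S1 library. Il9r was the 1 member whose level was lower at S3, opposite to the other 4.

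Summed over WT embryos this was 64 counts at S1 and 2 at S3, a ratio of levels of 16.6 (exact binomial 95% interval 4.41 to 140.1, counting error only). An exact permutation test over the WT samples gave a two-sided p of 0.0286, the smallest that 4 against 4 allow. It treated the libraries as independent, although both stages came from the same 4 embryos. The p therefore overstates what 4 pairs can show. Against a floor of 3 counts over the group, the S1 level was at least 3.62-fold higher than that at S3 in Het and at least 7.74-fold higher in KO. Il9r fell below the filter on mean counts at S3, so that it was left out of every main fit that held S3 libraries. Fits without the filter kept it.

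In KO at S1 both libraries held Il9r above all WT and Het libraries. The log2 fold change against WT was 0.81 (standard error 0.41, 95% interval −0.15 to 1.77, unadjusted p = 0.0867), which did not pass (edgeR adjusted p = 1.00), and KO libraries lay above all WT libraries in 6.57% and above both Het libraries in 17.4% of all genes tested. Without WT embryos 0 and 8 it was 0.58. The receptor is known from mast cells and lymphocytes, whose markers were therefore summed. The 10 mast cell and basophil markers summed to 2.13, 17.3, 13.8 and 2.34 CPM in WT embryos 0, 1, 5 and 8 at S1, to 15.9 and 12.4 CPM in Het and to 47.5 and 15.2 CPM in KO, and to 0.847 to 3.07 CPM at S3, with Mcpt4 at 0 in every library. The 7 lymphoid markers summed to 4.02 to 44.9 CPM in WT and 47.5 to 48.6 CPM in KO at S1, and the 7 neutrophil markers to 118.1 to 1273.2 and 1569.6 to 1643.6 CPM. Over all S3 libraries the lymphoid markers summed to 0 to 0.600 CPM and the neutrophil markers to 0.917 to 9.88 CPM. KO embryo 9 had the higher Il9r level and embryo 2 the higher mast cell sum. Il9r in Het at S1, where the sums at that stage were also above those of WT embryos 0 and 8, was within the WT range or just below it. The part of other cells in the Il9r values was not tested.

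**Figure D3:**
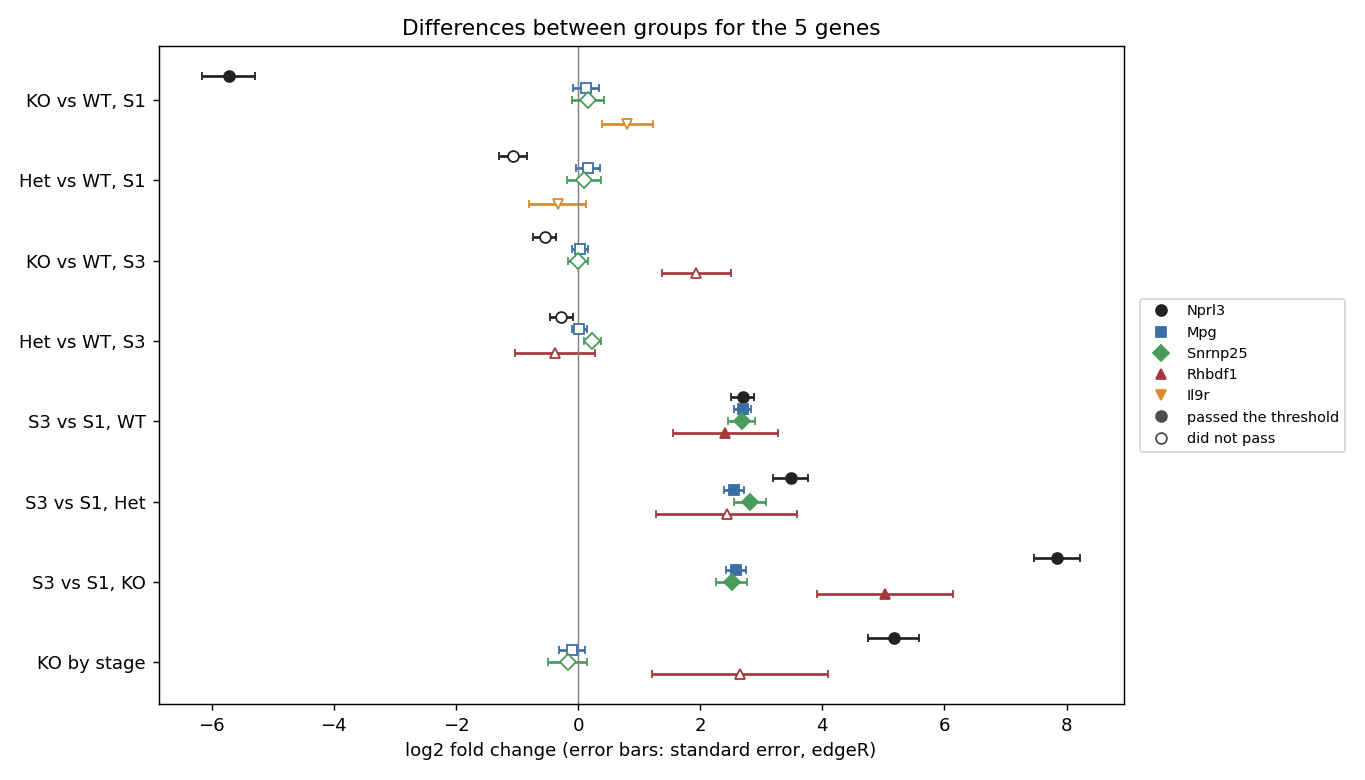
Log2 fold change (horizontal axis) of each member that passed the filter, by comparison, with bars for the standard error and filled points for calls at an adjusted p under 0.05 in edgeR. Nprl3 runs from −5.72 in KO against WT at S1 to 7.84 between stages in KO, and Mpg and Snrnp25 sit near 0 in every comparison of genotypes.

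Compared per kilobase of exon, the order of levels in WT at S1 was Snrnp25 (51.9 CPM per kb), Nprl3 (3.44), Mpg (1.94), Il9r (0.0799) and Rhbdf1 (0.0226). At S3 it was Snrnp25 (334), Nprl3 (22.1), Mpg (12.5), Rhbdf1 (0.122) and Il9r (0.0041). Nprl3 and Mpg did not overlap between WT embryos on this scale. Divided by the exon length that no other gene shares, Nprl3 was at 4.18 and Mpg at 3.02 CPM per kb at S1, with ranges of 3.37 to 5.42 and 2.82 to 3.44 that overlapped. Il9r and Rhbdf1 overlapped at S1, where the highest WT library of Rhbdf1 had 0.0705 and the lowest of Il9r 0.0516 CPM per kb. In KO at S1 Nprl3 was at 0.0637 CPM per kb, below Mpg at 2.11. In KO at S3 the order of this pair depended on the length used. Nprl3 was at 15 and Mpg at 12.7 CPM per kb of all exons, whereas by unshared length Nprl3 was at 18.2 (17.6 to 18.7) and Mpg at 19.8 (19.5 to 20.1) CPM per kb. Between WT embryos Mpg had the lowest coefficient of variation of the 5 genes, 9.42% at S1 and 6.87% at S3, and Nprl3 had 21.6% and 19.6%.

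The α-like globin genes on the other side of the Nprl3 start had larger stage differences than the members in WT. There the log2 fold change between stages was 5.63 for Hba-x, 4.80 for Hba-a1, 5.41 for Hba-a2, 6.74 for Hbq1b and 7.09 for Hbq1a, all called. In KO the value was 7.84 for Nprl3 (standard error 0.37), 6.97 for Hba-x (1.65), 6.24 for Hba-a1 (0.80) and 7.21 for Hba-a2 (0.84). It was 8.24 for Hbq1b (1.00) and 11 for Hbq1a (0.69). The order of these genes in KO is uncertain at these errors. At S1 the KO libraries held 0 counts of Hbq1a, so that its value has no measured S1 level behind it, and 2 and 238 counts of Hba-x. Hba-a1 and Hba-a2, and likewise Hbq1a and Hbq1b, are near-identical copies whose shared reads were left out, so that their values are uncertain. The 17 other genes within 500 kb of Nprl3 include these globins. Of the 17, 13 were tested between stages in WT, and 9 were higher and 2 lower with a median of 4.80. Over all genes 30.6% were higher and 35% lower, with a median of −0.08. The globins are among the 9, and the log2 fold changes of the other neighbours tested ran from −5.09 to 6.93. Between KO and WT, 0 of 10 tested genes of the 17 were called at S1 and 0 of 12 at S3, beside 0.00712% and 0.559% of all genes. At S1 the median over these genes was −0.71, with −1.62 for Hba-a1 (standard error 0.80), −2.06 for Hba-a2 (standard error 0.82, unadjusted p = 0.0368), −1.67 for Hbq1b (standard error 1.03) and −0.79 for Hba-x (standard error 1.67), each at an edgeR adjusted p of 1.00. Without WT embryos 0 and 8, whose S1 libraries held more globin, these were −0.33, −0.72, −0.07 and 2.83. At S3 the log2 fold change was −0.17 for Hba-a1, −0.26 for Hba-a2, −0.14 for Hbq1b and 0.56 for Hba-x. For Hbq1a, the globin farthest from Nprl3 here, it was −0.89 (standard error 0.22, edgeR adjusted p = 0.172), with both KO libraries below all WT libraries, an order seen in 9.36% of all genes tested.

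**Figure D4:**
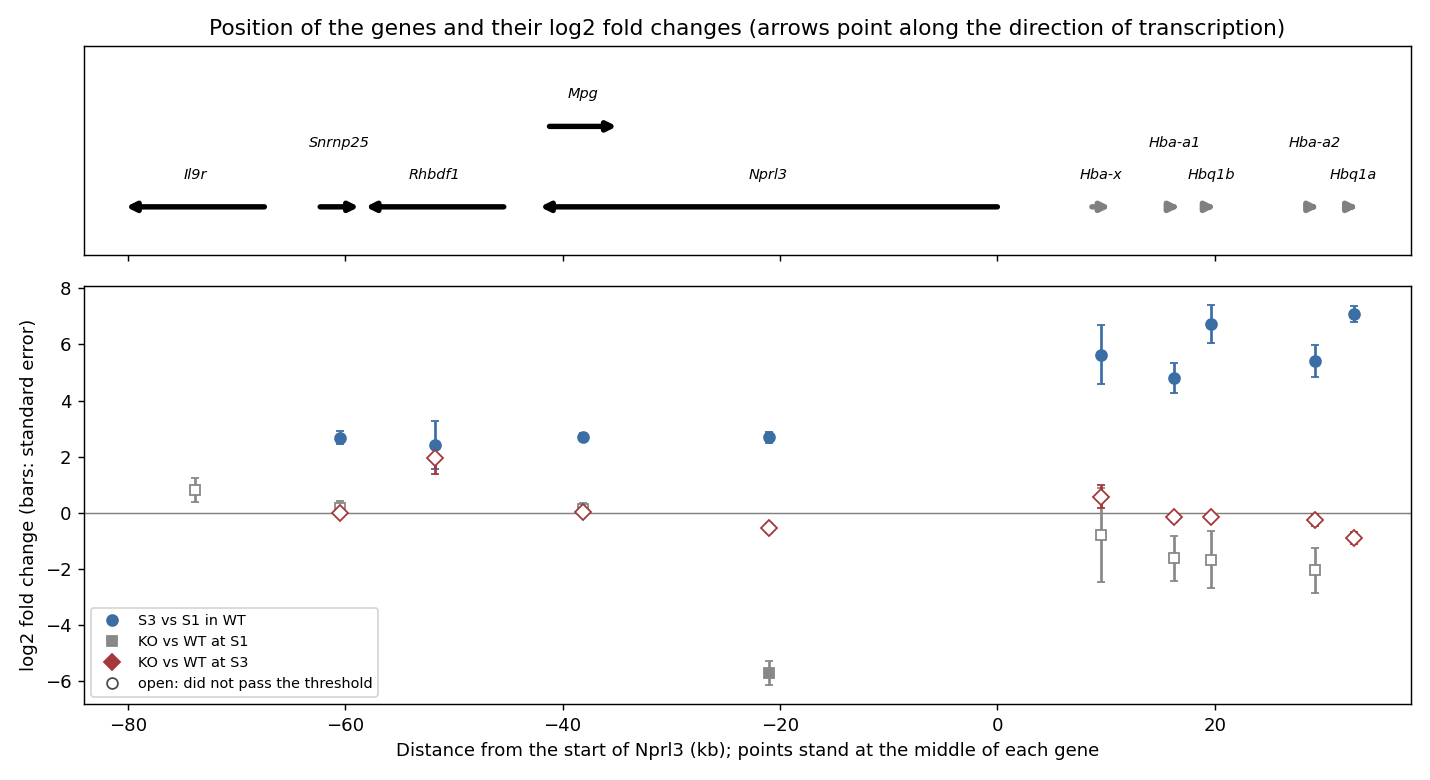
Top, the 5 members (black) and the α-like globin genes (grey) by distance from the start of Nprl3 in kb, with arrows along transcription. Bottom, the log2 fold change of each gene that was tested at the same horizontal position (bars, standard error; open points did not pass in edgeR); members rose by 2.41 to 2.7 between stages in WT and the globins by 4.80 to 7.09, and of these genes Nprl3 at S1 alone was called in KO against WT.

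The partners of the members were looked at in lists written from known function. Of the 11 tested genes of GATOR1, KICSTOR and the amino acid sensors, without Nprl3, 0 were called in KO against WT at S1 (median log2 fold change 0.02), and at S3 0 of 10 (median 0.07). Of 17 genes of GATOR2, the Rag GTPases and Ragulator 0 were called at S1 and 0 of 16 at S3. Base excision repair (18 genes at each stage), iRhom and ADAM17 partners (7 and 4) and the minor spliceosome (12 and 12) also had 0 called, in a test that called 0.00712% and 0.559% of all genes. Of the 9 tested genes of interleukin 9 receptor signalling 0 were called at S1.

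Between stages in WT these lists had members called in both directions, in a comparison that called 30.6% of all genes higher and 35% lower. In GATOR1 and KICSTOR 2 of 10 were higher and 2 lower (median 0.26), with Sesn1, a leucine sensor and stress gene, at 2.41 and Kics2, a KICSTOR subunit, at −1.72 on the log2 scale. In the GATOR2 and Rag list 4 of 17 were higher and 5 lower (median 0.05), with the GTPase Rragd at 5.31 and its relative Rragb at −3.82. The median of all genes was −0.08, and Nprl3 itself, which is in neither list, was at 2.69.

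In base excision repair, the pathway of Mpg, 4 of 18 were higher and 13 lower (median −1.18). The glycosylase Neil3 was at 3.56, while the glycosylase Nthl1 was at −3.38 and the ligase Lig3 at −2.76, and Mpg, which is not in the list, was called higher as those 4 were. In the minor spliceosome, the machine of Snrnp25, 5 of 12 were higher and 1 lower (median 0.27), led by Rnpc3 at 1.49, Cript at 1.70 and Zcrb1 at 0.97. Among partners of iRhom1 1 of 6 was higher and 3 lower (median −0.89), with the tumour necrosis factor receptors Tnfrsf1b at −2.53 and Tnfrsf1a at −1.78 and the protease Adam17 at −0.85. In the interleukin 9 list 4 of 9 were higher and 5 lower (median −0.63), with the transcription factor Stat5a at −5.21 and the feedback inhibitors Cish at 4.71 and Socs3 at 5.49. All values named in these lists passed in edgeR, each at an adjusted p of 0.00746 or less.

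Across the 16 libraries, the genes whose level followed each member most closely were read as Pearson correlations of log2 CPM over 13401 genes, as a description, since all libraries share the split by stage. For Mpg they were Sdcbp, Wbp2 and Snx15 (r = 0.998 each), and for Snrnp25 they were Fis1 (0.999), Glrx5 (0.997) and Glul (0.997). For Nprl3 they included Gm10143 (0.904) and Fgd6 (0.903). For Rhbdf1 they were Pck2 (0.939), Aldh6a1 (0.935) and Tmem140 (0.933). Il9r fell below the filter over the 16 libraries and has no such list.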

How the data were processed

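RNA was extracted from sorted S1 and S3 erythroblasts, amplified, and made into polyA-enriched libraries. The authors aligned reads to mm39 with STAR 2.7.9 and counted read pairs with featureCounts 1.6.4 on Ensembl release 104. They deposited raw counts per gene, without strand, with multimapping reads and those over more than 1 gene left out. Symbols came from GENCODE mouse release 39, which matched 54749 of 55416 IDs and left 667. A further 4 library columns matched no sample here and were not used. Promoter windows and motifs came from RefSeq on GRCm38.p6. The study's methods name DESeq2, which was an alternative here.

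Groups, embryo numbers and sex came from the sample labels. The members and gene lists were chosen with earlier results of these data known. Genes with a mean normalized count of 10 or less over the libraries of a fit were left out. Counts were TMM-scaled and tested with edgeR 4.0.16 (glmQLFTest) in R 4.3.3, with a Benjamini-Hochberg threshold of 0.05. KO and Het were each compared with WT on the libraries of both groups, KO with Het on the 8 libraries of a stage, stages within WT on its 8 libraries and within Het and KO on all 16, and the interactions on WT with the genotype in question. Comparisons that share WT libraries are not independent. Intervals are edgeR t intervals. Single values were tested by exact permutation on log2(CPM + 0.1). Permutations between stages did not use the pairing of libraries within embryos. Named genes were the 5 members, the α-like globins among the 17 genes within 500 kb, up to 3 called genes per list in KO against WT or between stages in WT, and the 3 genes most correlated with each member. A few genes that this rule would name are not reported here.

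Same-numbered libraries of both stages came from one embryo. Their deviations from the group means correlated at 0.069, 0.24, 0.349 and 0.335 in WT embryos 0, 1, 5 and 8, at 0.437 in KO and at 0.0493 in Het, over 13402 genes. The embryo therefore entered as a replicate block in an alternative fit. Other alternatives were DESeq2 1.42.0, sex as a covariate, no filter, upper-quartile scaling, scaling without globin genes, all 16 libraries in the fit, unshared exon length, and each embryo left out. Scaling by library totals and leaving out both WT embryos 0 and 8 were chosen after seeing the data. The main edgeR fit was tested on simulated data for KO against WT at each stage, the stages in WT and the KO interaction. The alternatives and the permutation tests were not.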

Additional observations from a re-analysis of the deposited data

Results flagged for a closer look

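In the WT S1 group Rhbdf1 was at 0.383 CPM in embryo 8, against 0 to 0.06 CPM in the other 3, and the gap to the next library was 0.843 of the range of the group. Of 10 groups of 4 libraries examined 1 stood out in this way, where chance gives about 1 in 20. Embryo 8 is one of the S1 libraries with more globin.

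The effect of the KO genotype on Nprl3 differed between stages, by 5.17 on the log2 scale in the interaction of genotype and stage (edgeR adjusted p = 3.05e-04). The S3 level was higher than the S1 level in 2 of 2 KO embryos by 354.9 and 178 times, and in 4 of 4 WT embryos by 6.31 to 6.80 times.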

How the results depend on the processing

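Of 436 values under alternatives, 399 kept their direction and side of the threshold, 13 no longer passed, 10 newly passed and 14 changed sign, the last all in values near 0. With library totals Nprl3 missed the threshold at −5.72 in KO against WT (edgeR adjusted p = 0.0668) and at −4.56 in KO against Het at S1, with 0 members called in each. Leaving out each embryo gave −6.39 to −5.30 and −5.31 to −4.22, with 0 to 1 members called in each. Nprl3 in Het against WT at S1 passed with DESeq2 (−1.08) and with sex (−1.27), with 1 member called in each. Without embryos 0 and 8, the male WT embryos, it was −0.86 and did not pass. With sex, Nprl3 passed at S3 in KO (−0.53, 1 member called) and in Het (−0.46, 2 members) against WT, and 2 members were called in KO against Het. Without the filter 1 member was called at S3 in KO against WT and 1 in KO against Het, and 5 between stages in Het. Rhbdf1 between stages in WT ranged from 2.12 to 4.39 with each embryo left out, and it could not be fitted without embryo 5, nor with library totals, where it fell below the filter. With unshared exon length, levels were 26.8 CPM per kb for Nprl3 in WT S3, and 3.02 (S1) and 19.5 (S3) for Mpg. Snrnp25 changed sign in KO against WT at S1 without embryos 0 and 8 (−0.0607) and within a range of −0.0066 to 0.26 over single embryos left out. At S3 it was −0.01 with DESeq2, −0.0081 without the filter, −0.0339 with upper-quartile scaling, −0.0113 with all 16 libraries and −0.13 without embryos 0 and 8, and −0.15 to 0.14 over single embryos. Mpg at S3 was −8e-04 with upper-quartile scaling and −0.0131 to 0.0649 over single embryos, and its interaction was 0.0095 with library totals. The cause of these changes was not tested.

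With the replicate block, Snrnp25 in KO against WT at S3 was −0.0086, Nprl3 between stages in WT was 2.69 (adjusted p = 3.57e-07), and no call of a member changed.

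Counts over all genes moved more than the members. KO against WT at S1 gave 1 gene in edgeR, 45 in DESeq2, 21 with sex and 7 without the filter, and at S3 66, 259, 547 and 356, 11 to 42 with 1 embryo left out and 5 without embryos 0 and 8. KO against Het at S1 gave 1, 34 in DESeq2 and 8 with sex, and at S3 6, 162 in DESeq2, 1597 with sex and 344 without the filter. Het against WT gave 0 at both stages, with 397 and 2124 with sex. The interaction gave 1 for KO, with 12 in DESeq2. Groups of 2 limit what can be called, and depth limits Rhbdf1 and Il9r, whose counts were 0 to 60 per library.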
